A study of Homo sapiens with 32 samples.

Results

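Genes for voltage-gated and potassium channels were followed through loss of cohesin-STAG2, cohesin-STAG1 and Polycomb repressive complex 2 (PRC2) in Ewing sarcoma cell lines. Members were chosen by symbol alone: every KCN gene whose symbol ends in a number, every SCN gene that ends in A or B after a number, and every CACN gene. The rule gave 135 of the 28278 gene symbols in the count tables. They comprised 40 pore subunits and 12 auxiliary subunits of voltage-gated potassium (Kv) channels, 12 subunits of calcium- or sodium-activated potassium channels, 16 inward rectifiers and 15 tandem-pore leak channels. The remaining members were 10 pore and 4 beta subunits of sodium channels and 10 pore and 16 auxiliary subunits of calcium channels.

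A673, SK-N-MC and A4573 are established Ewing sarcoma lines, and A673 carries the EWS::FLI1 fusion oncogene. RNA-seq of A673 knockout (KO) clones ran in 3 experiments, in which the controls were the parental line (WT-Parental) and a clone with an inducible Cas9 at AAVS1 (genotype iCas9, here the WT clone) from which all KO clones were made. Experiment 1 held 2 WT clone, 1 parental and 2 STAG2 KO libraries. In experiment 2 there were 2 WT clone and 1 parental library beside 3 libraries each of STAG2 KO, EZH2 KO and SUZ12 KO, so these 3 genotypes shared their controls. Experiment 3 held 1 WT clone, 1 parental and 3 STAG1 KO libraries. Experiment 4 compared 3 libraries of A673 cells with an siRNA to STAG2 (siSTAG2) with 3 control libraries (labelled WT, here siC). SK-N-MC iCas9 cells were compared with 1 STAG2 KO clone of theirs, and A4573 iCas9 cells, which lack STAG2, with 1 clone in which STAG2 was restored (STAG2 KI), at 1 library each. Each KO library is named by the number its column carries. The labels do not say whether control libraries of 1 experiment came from separate cultures, so p-values measure only the spread between these libraries, which may be technical.

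Voltage-gated sodium and calcium channels open when the membrane depolarizes, and the potassium channels bring the cell back towards rest or set its resting potential. Pore subunits conduct the ion, while auxiliary subunits change the trafficking and gating of the pore. Different combinations are known from neurons, from skeletal and cardiac muscle and from epithelia. STAG1 and STAG2 are alternative subunits of cohesin, the ring complex that forms chromatin loops, and EZH2 and SUZ12 are subunits of PRC2, which deposits the repressive histone mark H3K27me3.

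Total counts were 15734628 to 20663679 in the 22 A673 clone libraries, 29322507 to 32261248 in the 4 libraries of the pairs and 6852340 to 8184632 recovered reads in the knockdown. STAG2 was at 43.4 CPM (read counts scaled to the size of the library) in STAG2 KO library 5 of experiment 1 and at 188 in library 24, at 60.3 to 69.5 in STAG2 KO libraries of experiment 2 and at 247 to 346 in the controls. It was at 992 to 1090 normalized reads in siC and 144 to 180 in siSTAG2, at 296 CPM in SK-N-MC iCas9 cells against 183 in the KO clone, and at 33.5 in A4573 against 87.9 after restoration. EZH2 was at 28.5 to 56.1 CPM in EZH2 KO and SUZ12 at 11.2 to 20.7 in SUZ12 KO, each below its controls. STAG1 was at 15.0 and 32.7 CPM in STAG1 KO libraries 5 and 7, but at 61.9 in the library labelled STAG1 KO 1, between the controls at 57.0 and 68.2. Both WT clone libraries of experiment 1 were far more alike (mean chi-square per gene 1.33) than other libraries of 1 group (9.41 to 140), and STAG2 KO library 5 of experiment 2 stood apart from its group (113 and 140, against 25.7 between the others). CD99, a surface antigen of Ewing sarcoma, had 0 counts in every count library and 5944 to 6707 normalized reads in siC, whereas the EWS::FLI1-associated genes NKX2-2, NR0B1 and STEAP1 were detected. In bulk RNA, fewer cells that express a gene and less RNA per cell cannot be told apart.

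In STAG2-proficient A673 cells of experiments 1 and 2 the most abundant member was KCNE3, a small single-pass subunit that modifies Kv channels. Over the 6 control libraries of experiments 1 and 2 it was at 205 ± 62.5 CPM (SD, n = 6), with KCNE4, another subunit of that family, at 131 ± 20.7. Next came the T-type calcium channel pore CACNA1H at 99.5 ± 48.0, the calcium channel subunit CACNA2D1 at 85.4 ± 11.8, the Kv pore KCNA2 at 64.3 ± 13.3 and the small-conductance calcium-activated channel KCNN1 at 50.4 ± 13.6. Per kilobase of transcript KCNE3 (67.0 CPM per kb) and KCNE4 (45.1) also led, ahead of KCNN1 (14.0), CACNA1H (12.1), CACNA2D1 (11.3) and the modifying Kv subunit KCNS3 (10.6). In these 6 libraries 14 of 135 members averaged at least 10 CPM and 46 at least 1 CPM, and 57 had at most 3 counts in each. The controls of experiment 3 had another order, with means of 190 CPM for KCNE4, 166 for CACNA1H and 157 for KCNE3.

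Channel genes of every class were higher after loss of a PRC2 subunit. In EZH2 KO 37 of 135 members were higher than the 3 controls of experiment 2 and 1 was lower, and in SUZ12 KO 44 were higher and 2 lower (edgeR quasi-likelihood test, Benjamini-Hochberg adjusted p under 0.05 over 15130 genes). Of all genes tested 12% were higher and 3.69% lower in EZH2 KO, and 14.7% higher and 5.87% lower in SUZ12 KO. The 75 members tested had a median log2 fold change of 1.64 in EZH2 KO and 1.96 in SUZ12 KO, where all genes had 0.04 and 0.01. Because the controls had at most 3 counts in each library for 14 of the 37 and 17 of the 44 genes, these could pass the filter on low counts only through the KO libraries. Members were also grouped by their mean over the 12 libraries of experiment 2. At 10 CPM or more 7 of 17 were higher in EZH2 KO (6.6% of all genes at that level) and 8 of 17 in SUZ12 KO (7.46%). At 1 to 10 CPM these were 22 of 40 (22.4%) and 25 of 40 (27.3%). Under 1 CPM they were 8 of 18 (21.3%) and 11 of 18 (29.6%). The means include the KO libraries, so a gene could reach a level through its rise there. All 37 genes higher in EZH2 KO were also higher in SUZ12 KO, measured against the same controls. The share of all genes higher in EZH2 KO that were also higher in SUZ12 KO was not worked out. 7 members passed only in SUZ12 KO, among them CACNA1B, CACNG6, KCNA3, KCNAB3, KCNH2 and KCNIP3. Set directly against EZH2 KO, SUZ12 KO differed in 0 members by edgeR at adjusted p under 0.05, in both scalings tried, and in 8 at an unadjusted p under 0.05, while 0.00661% of all genes passed (1 gene, higher in SUZ12 KO).

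Without WT clone library 1 of experiment 2 the calls in EZH2 KO went from 38 to 24 (from 2377 to 1169 over all genes). Without WT clone library 2 they also went to 24 (1227 over all genes). The same 14 genes were lost in each case (adjusted p of 0.0510 to 0.157 and of 0.0574 to 0.127 by edgeR), among them CACNA1H, CACNG7, KCNA2, KCNAB2, KCNC1, KCND1, KCNG1, KCNH4, KCNJ4, KCNK15, SCN4A, SCN4B and SCN8A. The controls of experiment 2 also held fewer detected genes. They had 34 to 37 members at 1 CPM or more, against 45 to 47 in the controls of experiment 1 and 49 to 50 in those of experiment 3. EZH2 KO had 51 to 59 and SUZ12 KO 60 to 67. Over all gene symbols the counts were, for the same groups in turn, 12346 to 12425, 12852 to 13122, 13119 to 13213, 13353 to 13654 and 13310 to 13926. Set against all 8 control libraries of experiments 1 to 3, all EZH2 KO libraries lay above every control for 20 of the 37 genes and all SUZ12 KO libraries for 27 of the 44. The corresponding shares were 54.1% and 61.4%, and over all genes called higher 67.7% and 66.9%. Markers of other tissues moved in the same libraries. The summed level of 12 skeletal and cardiac muscle markers was 8.55 to 16.1 CPM in the controls of experiment 2, 54.6 to 89.4 in EZH2 KO and 70.9 to 125 in SUZ12 KO, with 7 of the 12 at the floor of 3 counts. That of 14 neuronal markers was 735 to 820, 424 to 511 and 361 to 542, although 4 single markers were higher and 2 lower in EZH2 KO (median log2 fold change 0.46 over 13 tested) and 5 higher and 3 lower in SUZ12 KO (0.58). That of 11 smooth muscle and mesenchymal markers was 3467 to 4393, 2083 to 2423 and 1616 to 1789, with 2 and 6 markers lower and 0 higher by edgeR. That of 5 epithelial markers was 348 to 401, 687 to 967 and 422 to 1230. The part of these shifts in the channel genes was not tested.

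**Figure D1:**
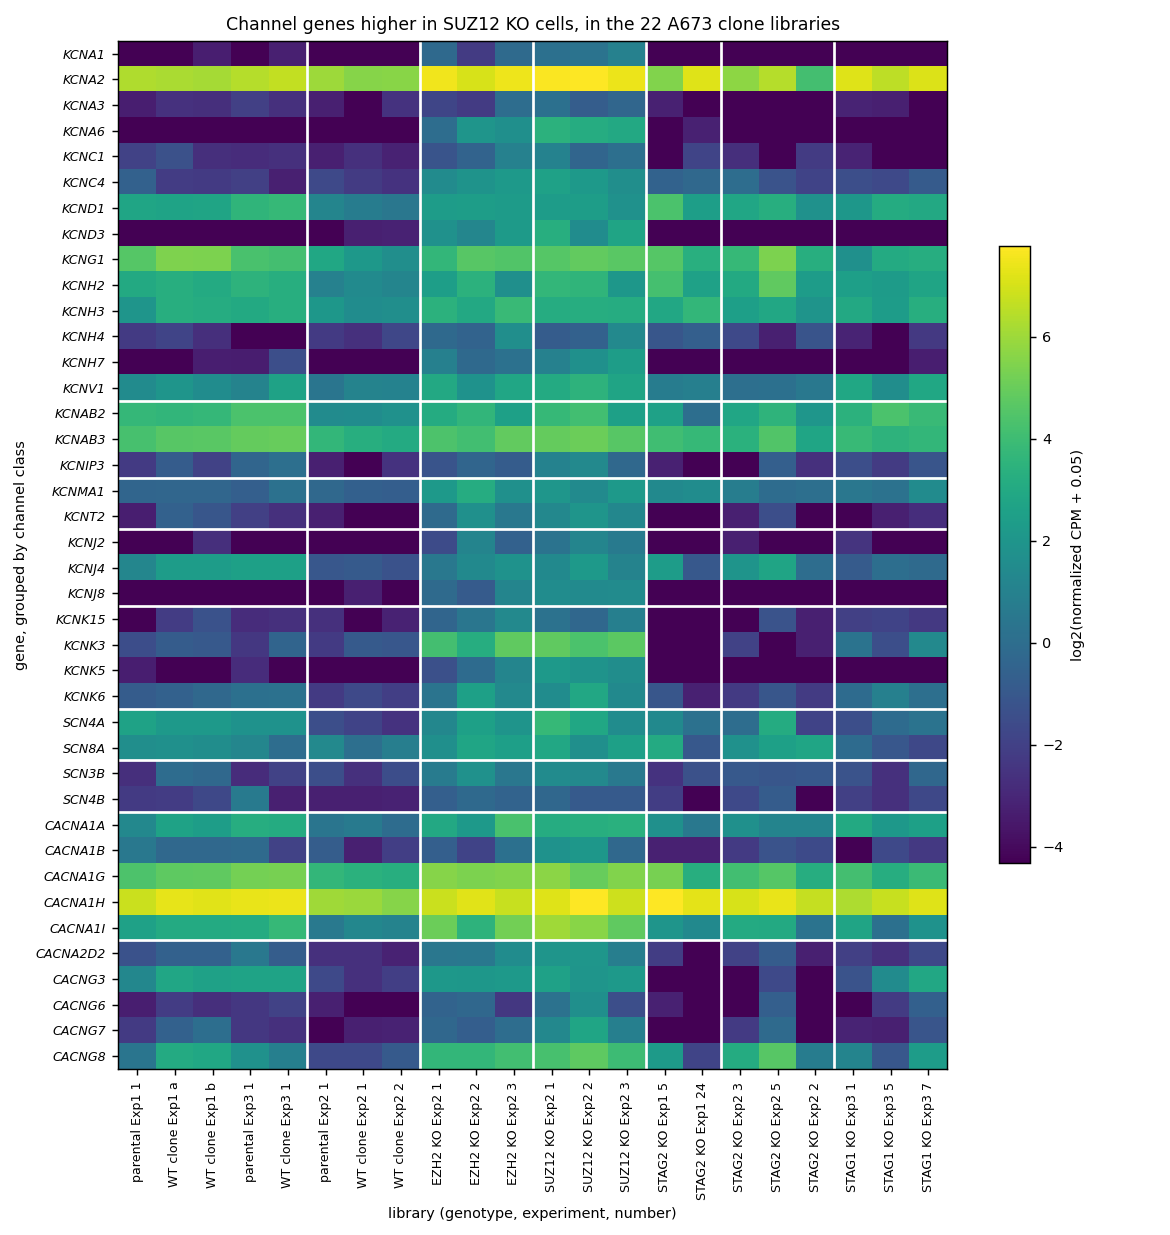
Normalized level, as log2(CPM + 0.05), of 40 channel genes called higher in SUZ12 KO (rows, by class) in the 22 A673 clone libraries (columns, by group). Levels in SUZ12 KO lie above the experiment 2 controls in every row. Those in EZH2 KO do so in every row also called higher there, but overlap the controls for CACNA1B. The controls of experiments 1 and 3 reach KO levels for some genes, such as SCN4A and KCNG1.

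Kv channels contributed most genes, with 14 of 40 pore subunits higher in EZH2 KO and 17 in SUZ12 KO (24 tested). KCNA6, a delayed-rectifier pore of the Shaker family, had 0 counts in all 8 control libraries of experiments 1 to 3. It was at 0.966, 3.94 and 3.20 CPM in EZH2 KO and 10.9, 8.97 and 7.91 in SUZ12 KO, which is at least 15.9-fold and at least 54.6-fold higher than the limit set by 3 counts per library. No control library reached any KO library. KCND3, which carries a fast-inactivating (A-type) current, was at 0 to 0.0615 CPM in the 8 controls and at 3.38, 2.33 and 4.77 in EZH2 KO and 9.52, 2.92 and 6.72 in SUZ12 KO, at least 20.6-fold and 37.6-fold higher. Part of its exons overlaps those of DDX20 on the other strand, and the libraries did not keep strand. KCNH7, of the ether-a-go-go-related family, was 0 in the 3 controls of experiment 2. Its levels were 1.88, 0.832 and 1.10 CPM in EZH2 KO and 1.93, 3.32 and 5.20 in SUZ12 KO, or at least 7.49-fold and 20.5-fold higher. Both groups lay above all 8 controls, of which the highest was at 0.322.

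KCNA2, a delayed-rectifier pore, was expressed throughout, at 47.7, 49.7 and 63.0 CPM in the experiment 2 controls, 184, 131 and 179 in EZH2 KO and 207, 215 and 170 in SUZ12 KO, and was 1.64 ± 0.40 and 1.90 ± 0.41 (SE) higher on the log2 scale. Its levels in both KO groups lay above all 8 controls. KCNG1, a subunit that forms no channel alone, rose by 2.04 and 2.42, but the WT clone libraries of experiment 1 stood at 42.6 and 41.4 CPM, above every EZH2 KO and SUZ12 KO library (13.0 to 29.1). KCNH2, the pore of the cardiac rapid delayed rectifier, passed only in SUZ12 KO (log2 fold change 2.09 ± 0.67, adjusted p 0.0472), and each of the 5 libraries left out other than SUZ12 KO library 3 ended that call (adjusted p 0.108 to 0.136). Of 12 auxiliary Kv subunits KCNAB2 was higher in both, by 1.57 ± 0.47 and 2.03 ± 0.48, and KCNAB3 and KCNIP3 in SUZ12 KO. For KCNAB2 the controls of experiments 1 and 3 (12.4 to 20.1 CPM) overlapped the KO libraries (5.73 to 17.0), and KCNAB3 and KCNIP3 also overlapped controls of these experiments.

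3 members of the Shaker family lie side by side on chromosome 12 (hg38): KCNA6 at chr12:4809334-4813318, KCNA1 at chr12:4909905-4918256 and KCNA5 at chr12:5043879-5046788. KCNA1, known from axons, was at 0 in the 3 controls, at 0.821, 0.166 and 0.859 CPM in EZH2 KO and at 1.06, 1.17 and 1.95 in SUZ12 KO, at least 3.63-fold and 8.22-fold higher. KCNA5, which carries an ultrarapid current in the atrium, had too few counts to be tested. It was 0 in all 8 controls and at 0, 0.166 and 0.0955 CPM in EZH2 KO and 0.532, 0.179 and 0.163 in SUZ12 KO.

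**Figure D2:**
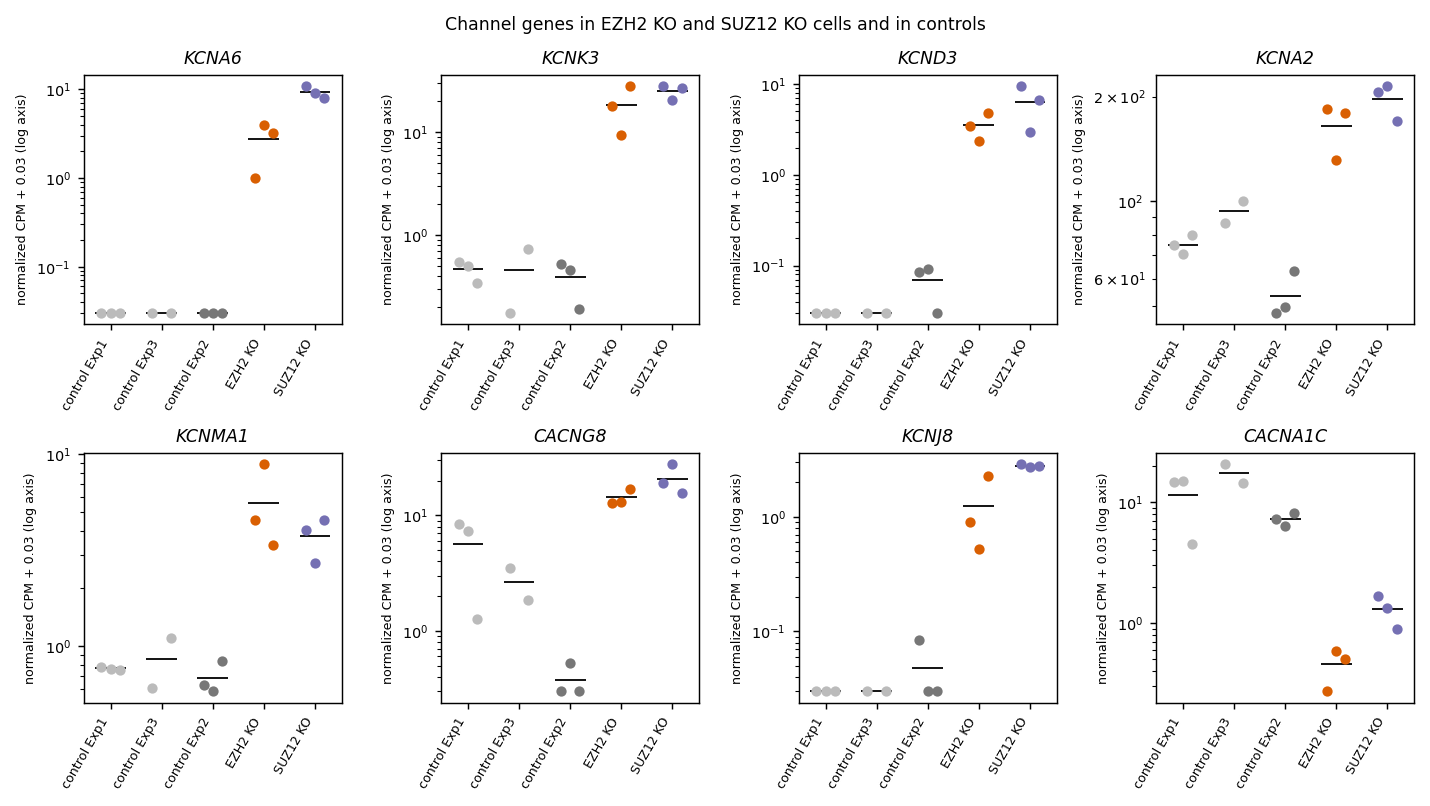
Normalized CPM (log axis, 0.03 added) of 8 channel genes in single libraries of the controls of experiments 1, 3 and 2, of EZH2 KO and of SUZ12 KO, with a line at each group mean. KCNA6, KCNK3, KCND3 and KCNJ8 lie above every control in both KO groups, and CACNA1C lies below every control.

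Tandem-pore leak channels hold the resting potential, and 4 of 15 were higher in both PRC2 KO groups (6 tested). KCNK3, an acid-sensitive leak channel, was at 0.490, 0.430 and 0.161 CPM in the experiment 2 controls, at 17.8, 9.27 and 28.2 in EZH2 KO and at 27.9, 20.5 and 26.7 in SUZ12 KO. Its log2 fold changes of 5.68 ± 0.60 and 6.12 ± 0.61 had adjusted p of 1.83e-04 and 8.80e-05 by edgeR, and no other A673 library exceeded 2.54 CPM. KCNK5 of the same acid-sensitive group was 0 in these controls and at 0.338, 0.888 and 2.20 CPM in EZH2 KO and 4.59, 3.63 and 3.04 in SUZ12 KO, at least 6.72-fold and 22.1-fold higher. KCNK15 was at least 8.90-fold and 7.20-fold higher and KCNK6 rose by 3.94 and 4.38 on the log2 scale.

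Inward rectifiers pass potassium more readily into the cell than out of it. Of 16 genes KCNJ2, KCNJ4 and KCNJ8 were higher in both KO groups (6 tested). KCNJ2, the classical strong rectifier of muscle, was 0 in the experiment 2 controls and at 0.290, 2.16 and 0.621 CPM in EZH2 KO and 1.16, 2.20 and 1.46 in SUZ12 KO, at least 6.04-fold and 9.47-fold higher. KCNJ8, a pore of ATP-sensitive channels, had at most 1 count in any of the 8 controls and was at 0.869, 0.499 and 2.24 CPM in EZH2 KO and 2.85, 2.69 and 2.76 in SUZ12 KO. These levels were at least 7.10-fold and 16.3-fold higher, and no control overlapped them. Among 12 calcium- or sodium-activated channel genes, KCNMA1, the large-conductance calcium-activated pore, was at 0.599, 0.553 and 0.806 CPM in the controls, at 4.49, 8.82 and 3.34 in EZH2 KO and at 4.01, 2.69 and 4.50 in SUZ12 KO. It rose by 3.09 ± 0.46 and 2.52 ± 0.46. KCNT2, a sodium-activated channel, was at least 11-fold and 17.1-fold higher. KCNN1, by contrast, was at 43.4 to 75.4 CPM in the controls and 57.2 to 99.6 in the KO libraries and passed in neither.

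Pore subunits of sodium channels rose in 3 of 10 cases (6 tested). SCN8A, a neuronal isoform, rose by 1.56 ± 0.46 and 1.63 ± 0.46 on the log2 scale, from 1.03 to 2.58 CPM in the controls to 3.23 to 7.49 in the KO libraries, and overlapped the controls of experiments 1 and 3 (0.967 to 3.29). SCN4A, the skeletal muscle isoform, rose by 4.12 ± 1.17 and 5.13 ± 1.20, but 4.62, 4.66 and 6.13 CPM in the controls of experiment 1 overlapped the KO libraries at 2.37 to 13.5. SCN9A, known from sensory neurons, was at 0.699 to 2.15 CPM in the controls and 1.29 to 3.05 in the KO libraries and passed in neither. Of 4 beta subunits SCN3B and SCN4B were higher in both.

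Calcium channel genes both rose and fell. Among the 10 pores, the T-type channels CACNA1G, CACNA1H and CACNA1I and the P/Q-type pore CACNA1A were higher in both KO groups, and the N-type pore CACNA1B in SUZ12 KO. CACNA1I was at 2.40, 2.09 and 1.45 CPM in the controls, at 33.0, 11.4 and 37.2 in EZH2 KO and at 65.4, 49.6 and 28.0 in SUZ12 KO, a change of 3.79 ± 0.68 and 4.61 ± 0.70 on the log2 scale. CACNA1A rose by 3.16 ± 0.49 and 3.0 ± 0.49, CACNA1G by 2.04 ± 0.30 and 1.96 ± 0.30 and CACNA1H by 1.09 ± 0.25 and 1.47 ± 0.25. The controls of experiments 1 and 3 stood higher for all 4 genes. They were at 110 to 169 CPM for CACNA1H and overlapped EZH2 KO (110 to 150) and SUZ12 KO (116 to 218), and at 2.44 to 9.23 for CACNA1A, where they overlapped EZH2 KO (4.66 to 19.8) and SUZ12 KO (8.94 to 10.3). At 6.03 to 13.8 CPM for CACNA1I they overlapped EZH2 KO only, and at 21.2 to 38.5 for CACNA1G SUZ12 KO only (31.0 to 51.2). CACNA1C, the L-type pore of heart and smooth muscle, went the other way. It was at 7.19, 6.33 and 8.11 CPM in the controls, 0.241, 0.555 and 0.477 in EZH2 KO and 1.64, 1.30 and 0.867 in SUZ12 KO. It fell by 4.05 and 2.48 on the log2 scale (SE 0.56 and 0.51, adjusted p 8.54e-04 and 0.00534 by edgeR), below all 8 controls (4.52 to 20.6). CACNA2D1 fell in SUZ12 KO by 0.71 on the log2 scale (SE 0.20, adjusted p 0.0285), from 71.7, 87.3 and 79.6 CPM to 51.4, 49.7 and 42.3, and 5 of 6 leave-outs (all but WT clone library 1) ended that call (adjusted p 0.0571 to 0.0896).

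Auxiliary subunits of calcium channels rose in 4 of 16 cases in EZH2 KO and 5 in SUZ12 KO (11 tested). CACNG8, which regulates AMPA receptors, was at 0.272, 0.492 and 0.269 CPM in the controls, at 12.8, 12.9 and 17.0 in EZH2 KO and at 19.1, 27.7 and 15.7 in SUZ12 KO, a rise of 5.38 ± 0.85 and 5.93 ± 0.87. CACNG3, of the same AMPA receptor group, rose by 4.52 ± 0.75 and 4.66 ± 0.75, and overlapped the controls of experiments 1 and 3 (2.34 to 7.17 CPM). CACNA2D2 was at least 11-fold and 19.0-fold higher, though 1 control of experiment 3 reached 1.39 CPM, above the lowest EZH2 KO library at 1.35. CACNG7, CACNG8 and CACNG6 lie next to each other on chromosome 19, within chr19:53909278-54012666 (hg38), and all 3 were higher in SUZ12 KO. There CACNG7 was at 2.42, 6.77 and 1.79 CPM (at least 21.6-fold higher) and CACNG6 at 1.11, 3.18 and 0.325 (at least 9.08-fold), and each spread more between clones than CACNG8 did. CACNG6 lost its call in SUZ12 KO without SUZ12 KO library 2 or any control library of experiment 2 (adjusted p between 0.0667 and 0.0904).

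The promoters of a few of these genes are shown because PRC2 is known to occupy promoters rich in CG dinucleotides. Each run holds 250 bases before and 50 after the RefSeq start on the plus strand of GRCh38.p14, 5′ to 3′, with CG in capitals. KCNA6 (at 12:4809084-4809383, 23 CG) was silent in all controls and rose in both PRC2 KO groups, and KCNK3 (2:26692472-26692771, 39 CG) had the lowest adjusted p of the members in both. CACNA1C (12:2052737-2053036, 54 CG) fell in STAG2 KO, EZH2 KO and SUZ12 KO, and SCN2A (2:165239164-165239463, 2 CG) fell in STAG2 KO.
KCNA6: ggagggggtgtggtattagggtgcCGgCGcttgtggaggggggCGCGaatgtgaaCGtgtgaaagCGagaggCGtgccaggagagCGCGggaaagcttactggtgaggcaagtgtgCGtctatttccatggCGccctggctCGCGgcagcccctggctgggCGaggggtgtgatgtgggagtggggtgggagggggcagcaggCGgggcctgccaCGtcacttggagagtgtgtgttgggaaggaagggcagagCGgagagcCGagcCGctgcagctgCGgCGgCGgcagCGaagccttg
KCNK3: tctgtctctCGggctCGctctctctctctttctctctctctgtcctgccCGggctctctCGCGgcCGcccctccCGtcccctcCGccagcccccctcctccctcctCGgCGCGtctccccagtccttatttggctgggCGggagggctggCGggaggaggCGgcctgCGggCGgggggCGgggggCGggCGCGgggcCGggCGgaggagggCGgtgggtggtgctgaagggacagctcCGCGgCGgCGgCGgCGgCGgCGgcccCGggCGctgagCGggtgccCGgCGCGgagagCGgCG
CACNA1C: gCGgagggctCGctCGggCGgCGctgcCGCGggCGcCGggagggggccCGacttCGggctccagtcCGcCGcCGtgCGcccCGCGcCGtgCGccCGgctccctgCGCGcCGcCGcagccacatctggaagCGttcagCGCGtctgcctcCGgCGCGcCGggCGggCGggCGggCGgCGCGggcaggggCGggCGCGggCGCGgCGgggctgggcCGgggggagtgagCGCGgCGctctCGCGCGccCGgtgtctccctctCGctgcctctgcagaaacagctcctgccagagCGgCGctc
SCN2A: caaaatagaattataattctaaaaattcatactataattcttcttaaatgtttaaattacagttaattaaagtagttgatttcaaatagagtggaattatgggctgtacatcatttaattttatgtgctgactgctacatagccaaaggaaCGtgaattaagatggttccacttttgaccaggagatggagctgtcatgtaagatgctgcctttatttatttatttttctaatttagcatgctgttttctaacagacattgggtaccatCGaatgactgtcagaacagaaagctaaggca
Of 97 members with such a window, 48 (49.5%) held at least 20 CG, against 41.2% of all 35116 RefSeq windows. Genes higher in both PRC2 KO groups held 20 or more CG in 12 of 22 cases (54.5%), tested members without a call in 10 of 19 (52.6%) and members too low to test in 19 of 49 (38.8%). The 5 windows of genes that passed only in SUZ12 KO all held 20 or more.

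In STAG2 KO channel genes moved in both directions. Across experiments 1 and 2 (5 STAG2 KO against 6 control libraries, with the experiment as a term) 4 of 135 members were higher and 9 lower. 49 were tested, and 12.4% of all 13574 genes tested passed in either direction (6.67% higher, 5.76% lower). The median log2 fold change of the members tested was 0.29, and 0.04 over all genes. Within experiment 1 alone the median was -0.90 over 57 members and -0.02 over all genes, with 4 members higher and 13 lower. There 3663 of 14145 genes passed. Within experiment 2 alone the medians were 0.60 (47 members) and 0.03, with 2 members higher and 5 lower and 494 of 13383 genes passing. The calls below are from both experiments together. The 9 lower genes were the Kv pores KCNS3 and KCNH5, the Kv subunits KCNE3 and KCNE4, the sodium channel pores SCN1A, SCN2A and SCN9A, and the calcium channel genes CACNA1C and CACNG5. The 4 higher genes were the inward rectifier KCNJ12, the A-type pore KCND1, KCNMA1 and CACNA1H. With the 2 closely alike WT clone libraries of experiment 1 summed, a run added after seeing the data, 10 of 46 members tested passed (3 higher, 7 lower). KCND1 and SCN9A then missed the threshold (adjusted p by edgeR 0.0569 and 0.0572). Markers of other cell types moved in the same libraries. The 11 smooth muscle and mesenchymal markers summed to 1301 to 2969 CPM in STAG2 KO and 3011 to 4393 in the 8 controls, with ACTA2, COL1A1 and COL1A2 lower and ENG and THY1 higher. The neuronal markers GAP43, NEFL and SNAP25 were lower and the others tested were not called, while the neuronal sum overlapped (399 to 773 CPM against 319 to 820). Their part in the channel genes was not tested.

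CACNA1C fell most. It was at 14.7, 15.0 and 4.52 CPM in the controls of experiment 1 and at 0.0592 and 0 in STAG2 KO there, and at 7.19, 6.33 and 8.11 against 0.318, 0.0532 and 0.0556 in experiment 2. The log2 fold change was -6.41 ± 0.69 (adjusted p by edgeR 2.55e-04), and in both experiments each KO library lay far below each control. CACNA1C shares exonic bases with antisense transcripts, which these libraries cannot tell apart from it. KCNS3, which modifies other Kv pores, was at 29.4, 30.0 and 28.5 CPM against 3.43 and 1.61 in experiment 1 and at 20.1, 22.6 and 17.6 against 3.65, 2.13 and 2.34 in experiment 2. Its log2 fold change of -3.19 ± 0.25 had the lowest adjusted p of the members (5.10e-05). CACNG5, an auxiliary gene of the AMPA receptor group, was at 4.47 to 21.9 CPM against 0.710 and 0.288, and at 2.36 to 2.89 against 0.223 to 0.798, a change of -3.53 ± 0.67.

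KCNE3 and KCNE4, the most abundant members in the controls of experiments 1 and 2, fell less. KCNE3 was at 166, 167 and 133 CPM against 35.9 and 94.5 in experiment 1 and at 275, 286 and 205 against 92.1, 72.8 and 150 in experiment 2, apart within each experiment. On the log2 scale it changed by -1.28 ± 0.25 (adjusted p 0.00771). Within 1 experiment alone the change was the same in size but missed the threshold (-1.29, adjusted p 0.0593, and -1.30, adjusted p 0.0508). KCNE4 changed by -0.80 ± 0.15, passing in experiment 2 (-1.04, adjusted p 0.0118) and not in experiment 1 (-0.53, adjusted p 0.124). KCNH5, of the ether-a-go-go family, was at 36.7 to 40.8 CPM against 4.08 and 7.03, and at 22.9 to 30.3 against 3.09 to 15.3, a change of -2.21 ± 0.41 that did not pass in experiment 2 alone (adjusted p 0.121).

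The sodium channel genes SCN3A, SCN2A, SCN1A, SCN9A and SCN7A form a cluster at chr2:165087526-166611482 (hg38), and SCN2A, SCN1A and SCN9A fell in STAG2 KO. SCN2A, a neuronal pore, was at 1.27, 1.83 and 1.71 CPM against 0.355 and 0.173 in experiment 1 and at 1.74, 2.77 and 1.83 against 0.265, 0.372 and 0.278 in experiment 2, with a change of -2.70 ± 0.31 (adjusted p 3.61e-04). The KO libraries lay below all controls. SCN1A changed by -3.98 ± 0.79, with 0.312 to 2.21 CPM in the controls and at most 0.334 in STAG2 KO, and the groups were apart only within each experiment. SCN9A changed by -2.02 ± 0.53, and its call was lost without STAG2 KO library 24 or 5 of experiment 1, without library 2 or 3 of experiment 2, and without either WT clone library of either experiment (adjusted p from 0.0580 to 0.0892). SCN1A and SCN9A share exonic bases with SCN1A-AS1 on the other strand.

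KCNJ12 was at 1.73, 1.94 and 2.81 CPM against 14.3 and 60.3 in experiment 1 and at 4.52, 5.66 and 1.34 against 13.5, 15.3 and 30.8 in experiment 2. Its log2 fold change was 3.14 ± 0.53 (adjusted p 0.00327), and 2.35 in experiment 2 alone (adjusted p 0.0674). The KO libraries lay above the controls in both experiments, but reads of the near-identical KCNJ18 may be counted with it. KCNMA1 was at 0.727 to 0.751 CPM against 2.60 and 2.94, and at 0.553 to 0.806 against 0.905 to 1.69, a change of 1.34 ± 0.30 that was lost without STAG2 KO library 3 of experiment 2 (adjusted p 0.0523). KCND1 (1.49 ± 0.40) and CACNA1H (0.84 ± 0.21) overlapped the controls. Both lost their calls without library 3 of STAG2 KO or any control library of experiment 2, and KCND1 also without library 5 of STAG2 KO or a WT clone library of experiment 1. The adjusted p then lay between 0.0548 and 0.0725 for CACNA1H and between 0.0549 and 0.130 for KCND1.

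**Figure D3:**
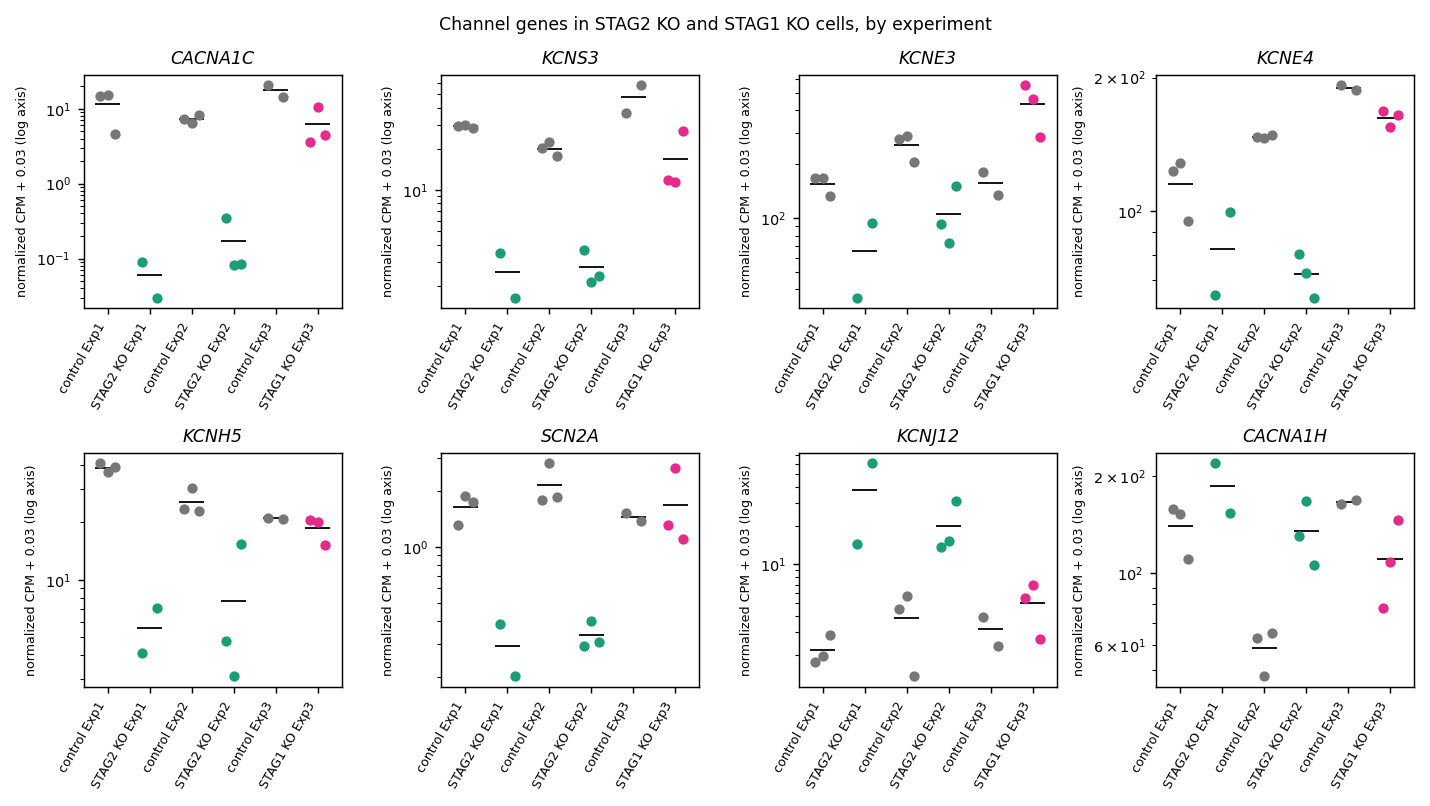
Normalized CPM (log axis) of 8 channel genes in single libraries of controls and STAG2 KO in experiments 1 and 2 and of controls and STAG1 KO in experiment 3, with a line at each group mean. CACNA1C, KCNS3, KCNE3 and SCN2A lie lower in STAG2 KO within both experiments, and KCNE3 lies higher in STAG1 KO.

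The size of the STAG2 KO effect differed between experiments 1 and 2 in 0 of 49 members tested, and in 0 of all genes, by edgeR at adjusted p under 0.05. At an unadjusted p under 0.05 it differed in 14 members and 4150 genes. The median difference (experiment 2 minus experiment 1, log2) was 1.10 over the members and 0.09 over all genes. KCNG1 and KCNAB2 are examples, chosen after their values were seen. KCNG1 was lower in both STAG2 KO libraries of experiment 1 (24 and 9.97 CPM against 24.2 to 42.6) and higher in all 3 of experiment 2 (9.40 to 42.3 against 3.07 to 7.42). KCNAB2 was lower in experiment 1 (6.04 and 0.980 against 12.4 to 13.4) and higher in experiment 2 (4.06 to 11.6 against 2.79 to 3.44). Left out, STAG2 KO library 5 of experiment 2 took the number of members called from 13 to 19 (8 higher, 11 lower). Over all genes that number went from 1687 to 4048. Experiment 1 alone gave 17 members and experiment 2 alone 7.

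In the siRNA knockdown 5 of 135 members were higher and 6 lower (limma on log2 of the deposited normalized reads plus 1, adjusted p under 0.05, 29 members tested). Of all 12060 genes tested 9.54% were higher and 11% lower, and the median log2 fold change was -0.21 over the members and 0.01 over all genes. KCNS3 was at 395, 417 and 397 normalized reads in siC libraries 1 to 3 and at 158, 174 and 156 in siSTAG2, a log2 fold change of -1.30 ± 0.09 (adjusted p by limma 3.52e-11). KCNE3 was at 1722, 1755 and 1831 against 1131, 1099 and 1205, a change of -0.63 ± 0.06 (adjusted p 1.25e-08). In neither gene did the groups overlap. KCNE4 changed by -0.40 ± 0.10 (adjusted p 0.00468). These 3 were the ones of the 13 genes called in STAG2 KO that passed in the knockdown, in the same direction. 8 of the 13 could be tested and all 8 had the sign they had in STAG2 KO. Of these CACNA1H, KCND1, KCNH5, KCNJ12 and SCN2A were not called (adjusted p by limma 0.0569 to 0.646). The shares of all genes called in STAG2 KO that passed or kept their sign in the knockdown were not worked out. This agreement therefore has no background to be set against. CACNA1C, under the minimum mean of 10 reads and so not tested, was at 10.5, 16.7 and 13.5 normalized reads in siC and 3.33, 2.78 and 8.69 in siSTAG2.

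The other knockdown calls were not called in STAG2 KO. CACNG3 was at 18.1, 22.6 and 15.6 against 1.11, 3.71 and 0.966 (-2.86 ± 0.47, adjusted p by limma 6.90e-05) and CACNA1G at 33.4, 41.3 and 35.4 against 18.9, 13.9 and 12.6 (-1.24 ± 0.26). KCNH2 went from 14.3, 13.8 and 13.5 to 37.7, 36.2 and 29.9 (1.25 ± 0.26) and KCNG1 from 47.7, 49.2 and 38.5 to 66.6, 93.6 and 79.2 (0.80 ± 0.18). All 4 kept their calls under every alternative in which they were tested. CACNG3, CACNA1G and KCNH2 were too low to be tested at a minimum mean of 50, and CACNG3 also when a siC library was left out. CACNG4, KCNQ5 and KCNN1 were higher by 0.72, 0.51 and 0.33 and KCNAB2 lower by 0.91 in size on the log2 scale, with calls that leaving out 1 of several libraries ended (adjusted p up to 0.141, 0.122, 0.0944 and 0.121). Without siC library 3, 6 members passed, and KCNAB2, KCNE4, KCNN1 and KCNQ5 did not (adjusted p 0.0519 to 0.0944). Of 9 smooth muscle and mesenchymal markers tested in the knockdown, 2 were higher and 6 lower by limma, and their part was not tested.

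**Figure D4:**
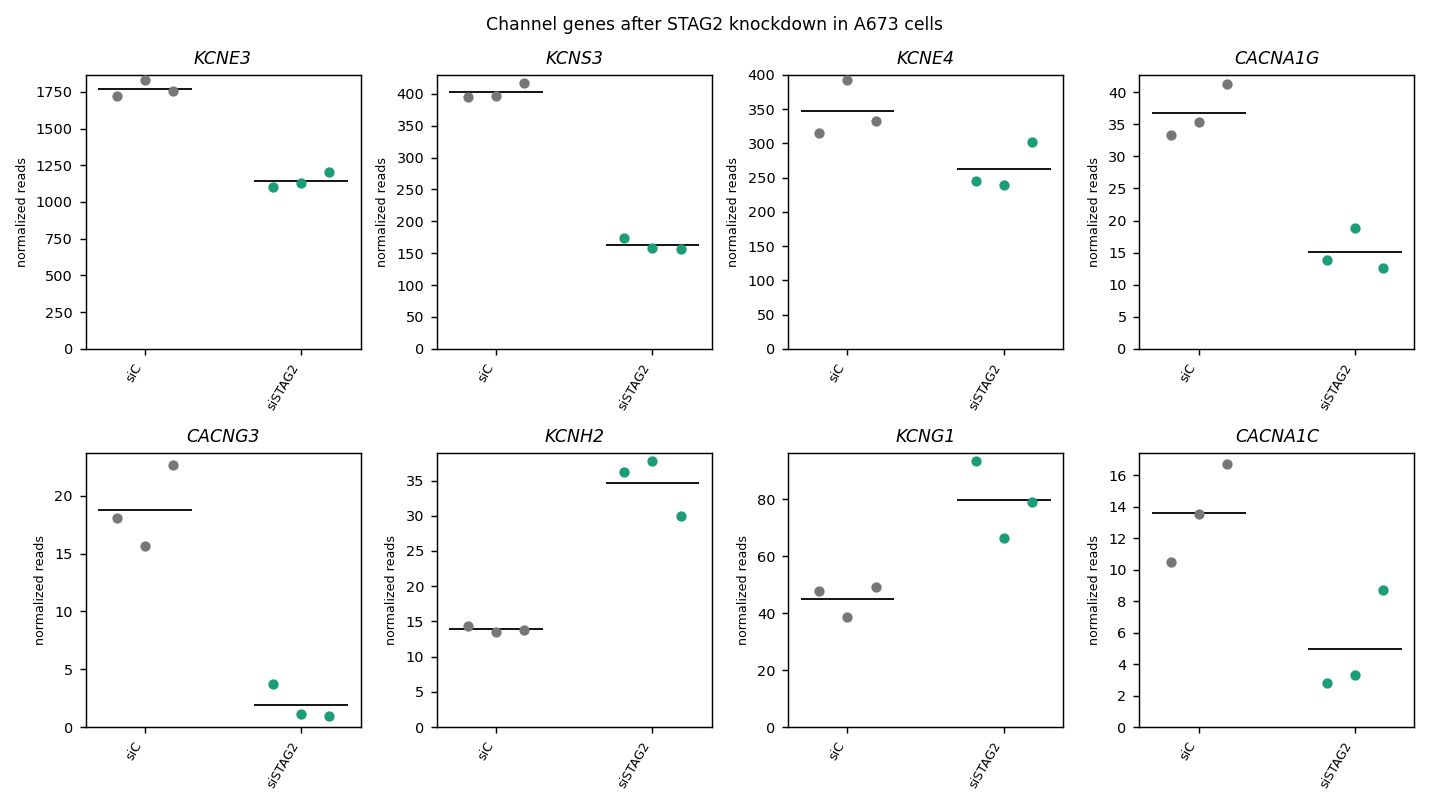
Deposited normalized reads (linear axis from 0) of 8 channel genes in 3 siC and 3 siSTAG2 libraries, with a line at each group mean. KCNE3, KCNS3, KCNE4, CACNA1G, CACNG3 and CACNA1C are lower and KCNH2 and KCNG1 higher in every siSTAG2 library than in any siC library.

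In STAG1 KO most called members were lower. Against 1 parental and 1 WT clone library, 8 of 135 members were lower in STAG1 KO and 1 was higher (edgeR, 56 tested), where 5.27% of all 14373 genes tested passed (2.5% lower, 2.77% higher). The median log2 fold change was -0.70 over the members and -0.00 over all genes. These calls rest on both controls. Without the parental or without the WT clone library 1 control was left, and no call held, in the members or in any other gene. The median log2 fold change of the members was then -0.69 without the parental and -0.62 without the WT clone library. Over all genes it was 0.005 and 0.004. The auxiliary calcium channel gene CACNG4 was at 18 and 26.4 CPM in the controls and at 4.73, 3.50 and 3.20 in STAG1 KO libraries 1, 5 and 7, a change of -2.56 ± 0.26 (adjusted p 0.0181). The beta subunit gene CACNB3 was at 40.8 and 34.9 against 16.8, 15.3 and 15.3 (-1.28 ± 0.12). The Kv pore KCNQ3 changed by -2.96 ± 0.59, and CACNA1G, KCNJ4 and KCNAB3 were also lower. KCNE3 was at 180 and 134 CPM in the controls and at 552, 460 and 283 in STAG1 KO (1.44 ± 0.29, adjusted p 0.0496), with no overlap. The library labelled STAG1 KO 1, whose STAG1 level lay within the controls, entered all 9 calls, and without it 12 members passed. Over all genes 757 passed with it and 1310 without it. The 11 smooth muscle and mesenchymal markers summed to 5538 to 6043 CPM in STAG1 KO and 3537 to 4012 in its controls, and their part was not tested.

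Set against each other, the changes in STAG2 KO and in STAG1 KO (each from its own controls) differed in 10 of 135 members (edgeR, 61 tested), 6 higher and 4 lower in STAG2 KO. Of all 14696 genes tested 6.11% differed (2.36% higher, 3.75% lower). KCNE3 differed by -2.77 ± 0.47 (STAG2 KO effect minus STAG1 KO effect, log2, adjusted p 0.00357), since it fell in STAG2 KO and rose in STAG1 KO. SCN1A, CACNA1C and SCN2A also differed towards a lower level in STAG2 KO, by -5.35 ± 1.18, -4.93 ± 0.97 and -2.95 ± 0.56. CACNG4, CACNB3, KCNJ11, KCND1 and CACNA1H differed in the other direction. KCNS3 differed by -1.71 ± 0.49 and missed the threshold (adjusted p 0.0543).

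The isogenic pairs had no replicates, so their ratios were not tested, and 95% intervals (exact binomial) cover counting error only. Past a 4-fold ratio, with at least 50 counts in the pair, lay 9 of 52 members in SK-N-MC (5.78% of all genes so filtered) and 14 of 65 in A4573 (4.41%). In SK-N-MC 7 of the 9 were higher without STAG2. CACNG8 was at 0.153 CPM with STAG2 and 19.9 without it (log2 ratio 6.52), and the Kv pore KCNQ5 at 1.53 and 18.4 (3.53). KCNJ4 had a log2 ratio of 2.50, and KCNG1, from 3 counts with STAG2, one of 5.23 (interval 4.41 to 8.27). CACNA1C, at 1.66 with and 0.326 without STAG2 (-2.14, interval -3.48 to -1.36), and KCNT2, with 3 counts without STAG2 (-3.87, interval -6.87 to -2.95), were lower. In A4573 12 of the 14 were lower without STAG2. KCNE4 was at 152 CPM with restored STAG2 and 29.3 without it (-2.38), KCNH5 at 25.3 and 5.05 (-2.31) and KCNG1 at 76.3 and 17.3 (-2.13). KCNQ1, KCNT2, KCNJ3, KCNJ4, KCNJ14, KCNIP1, KCNIP3 and the muscle pore CACNA1S were also lower (-2.01 to -3.04). The fast Kv pore KCNC1 (2.13) and KCNH1 (2.19) were higher.

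Of the genes lower in both the A673 knockout and knockdown, KCNE3 was also lower without STAG2 in both pairs, at 124 against 403 CPM in SK-N-MC (-1.70, interval -1.75 to -1.65) and 216 against 457 in A4573 (-1.08, interval -1.12 to -1.04). KCNE4 had 0 and 4 counts in SK-N-MC and was lower without STAG2 in A4573 only. KCNS3 had 7 counts with STAG2 and 20 without it in SK-N-MC, and was at 15.7 and 17.8 CPM in A4573 (0.18, interval 0.004 to 0.36). CACNA1C was lower without STAG2 in A4573 as well, at 20.9 against 43.5 CPM (-1.05). KCNG1 and KCNJ4 went past 4-fold in opposite directions in the pairs, higher without STAG2 in SK-N-MC and lower in A4573, and KCNT2 was lower without STAG2 in both.

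**Figure D5:**
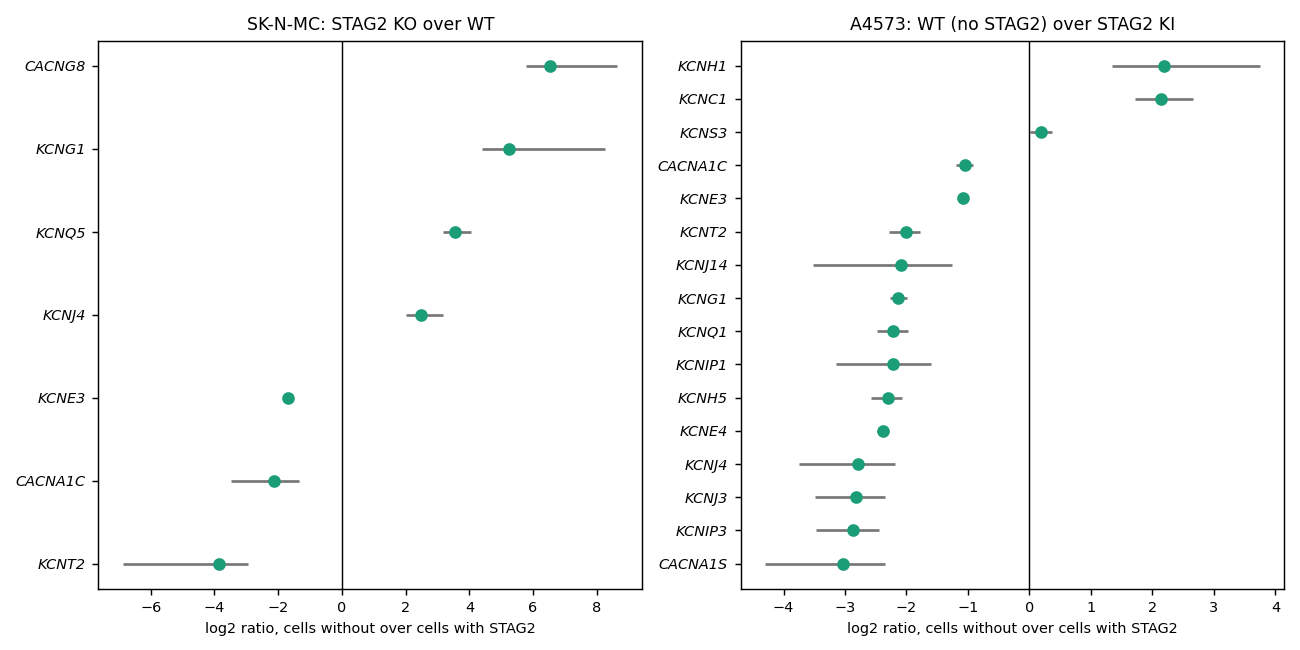
Log2 ratio of normalized CPM without over with STAG2 in SK-N-MC and A4573 for named members past 4-fold and for KCNE3, KCNE4, KCNS3 and CACNA1C where the pair held at least 50 counts, 1 library each side, with exact binomial 95% intervals. Most ratios past 4-fold are positive in SK-N-MC and negative in A4573, and KCNE3 is negative in both.

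A list of 47 channel partners (regulators, accessory proteins and relatives such as HCN and NALCN complex genes) was followed beside the members, of which 45 were in the tables. In STAG2 KO 2 of 29 tested were higher, NEDD4L (1.75), a ubiquitin ligase of ion channels, and REST (0.46), a repressor of neuronal genes, and 5 were lower (6.67% and 5.76% of all genes tested). LRRC38, an auxiliary subunit of the KCNMA1 channel, was the lowest of these at -4.73, beside HCN2 (-1.25), TPCN1 (-1.24) and RCOR1 (-0.71). In the knockdown NEDD4L was also higher (0.50) and 4 of 18 tested were lower (9.54% and 11% of all genes tested), among them RCOR1 (-0.42), TPCN1 (-0.49) and HVCN1 (-1.63). In EZH2 KO 8 of 34 partners were higher and 2 lower (12% and 3.69% of all genes tested), and in SUZ12 KO 9 and 3 (14.7% and 5.87%), against the same controls. DPP6, an auxiliary subunit of A-type channels, and the sodium channel regulator FGF12 were higher in both, and LRRC38 lower in both. In STAG1 KO 3 of 30 were higher and 3 lower (2.77% and 2.5%). The median log2 fold change of the tested partners was -0.26 in STAG2 KO, 0.26 in EZH2 KO, 0.35 in SUZ12 KO, -0.03 in STAG1 KO and -0.13 in the knockdown.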

How the data were processed

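RNA was read as non-directional, oligo-dT primed single-end libraries. Per the labels and the submitters' processing notes, the authors aligned reads to hg38 with TopHat2 (version 2.0.0), which ran on Bowtie (version 0.12.7), beside SAMtools (version 0.1.16); the counting program is not given in the sources used here. For the A673 clones and the pairs they deposited raw counts per gene symbol. For the knockdown they deposited a normalized signal, gene counts divided by size factors, and 100% of the members' values came out as whole reads within 0.01. The tables read held values per library only, and every such column was used.

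Counts were filtered (filterByExpr), scaled (TMM) and tested with edgeR 4.0.16 (glmQLFit, glmQLFTest) in R 4.3.3, and knockdown values with a mean of at least 10 as log2(value + 1) with limma 3.58.1, so that fold changes of low genes are understated. p-values were Benjamini-Hochberg adjusted over all genes tested, with a threshold of 0.05. DESeq2 1.42.0 was an alternative. CPM are counts scaled to the TMM-adjusted library size. Genes with at most 3 counts in every control library got a lower bound of the fold, from the KO mean over the level of 3 counts per library. Pair ratios used a prior count of 2. The edgeR fits of STAG2 KO, EZH2 KO and STAG1 KO and the limma fit of the knockdown were tested on simulated data.

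Members and gene lists were chosen with earlier results of these data known. Named were, per comparison, up to 12 called members of largest change whose mean in 1 group reached 1 CPM (in the knockdown 10 normalized reads), the 10 of highest level, 13 fixed ones, members called in 3 or more comparisons, and members past 4-fold in the pairs; others were named after their values were seen, to complete small counts. Promoter windows came from RefSeq and matched 97 of 135 members. Some genes are counted but not reported here by name.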

Additional observations from a re-analysis of the deposited data

Results flagged for a closer look

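By Dixon's test 5 of 68 groups of values tested held 1 library far from the others, where chance gives about 1 in 20. The groups were values of 1 gene in STAG2-proficient or in STAG2 KO libraries, and all 5 were in the 5 STAG2 KO libraries. The figure of 5 of 68 is therefore not the rate within STAG2 KO alone, which was not set against chance. CACNA1C was at 0.318 CPM in library 3 of experiment 2, against at most 0.0592 in the others. SCN1A was at 0.334 CPM in library 2 of experiment 2, against at most 0.0592. The same library held CACNA2D1 at 118 CPM (73.0 to 84.5 in the others) and KCNIP1 at 7.68 CPM (at most 1.76). KCNN1 was at 139 CPM in library 24 of experiment 1, against 47.6 to 67.8.

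For 10 members the change in STAG2 KO differed from that in STAG1 KO by edgeR's test of the difference. The difference (STAG2 KO effect minus STAG1 KO effect, log2) was -5.35 for SCN1A, -4.93 for CACNA1C, -2.95 for SCN2A and -2.77 for KCNE3. In the other direction it was, among others, 1.39 for CACNA1H, 1.76 for CACNB3, 2.36 for KCND1, 3.16 for CACNG4 and 4.95 for KCNJ11. STAG1 KO, with its own controls, was in experiment 3 only, and STAG2 KO in experiments 1 and 2. A difference between the 2 effects thus cannot be told apart from one between experiments. This contrast was not rerun with libraries left out.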

How the results depend on the processing

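No called member changed sign under any alternative run. The calls kept in every alternative that tested them were 24 of 38 in EZH2 KO, 30 of 46 in SUZ12 KO, 4 of 13 in STAG2 KO, 6 of 11 in the knockdown and 0 of 9 in STAG1 KO. Of these, 4 in EZH2 KO and 3 in the knockdown were too low to be tested in at least 1 alternative. Leaving out 1 library at a time gave 24 to 36 calls in EZH2 KO, 33 to 44 in SUZ12 KO, 9 to 19 in STAG2 KO, 0 to 12 in STAG1 KO and 6 to 12 in the knockdown. Over all genes calls in EZH2 KO went from 2377 to between 1169 and 1760, and in SUZ12 KO from 3112 to between 1874 and 3238. In STAG2 KO they went from 1687 to between 1053 and 4048, and in the knockdown from 2476 to between 1750 and 2533. The DESeq2 test gave 20 members in STAG2 KO (10 higher, 10 lower) and 17 in STAG1 KO. Experiment 1 alone gave 17 in STAG2 KO and experiment 2 alone 7. A minimum mean of 50 left 6 calls of 15 tested in the knockdown, because fewer genes were tested. Set against all 8 controls, a comparison chosen after seeing the data, 20 of the 37 genes higher in EZH2 KO and 27 of the 44 in SUZ12 KO lay above every control. Beyond fewer samples or genes, the cause of these shifts was not tested. The knockdown gave 12 calls with a replicate block, but same-numbered libraries correlated at 0.026, 0.037 and 0.004, so the numbers were not read as pairs. Intervals of the pairs cover counting error only, and 57 members were too low in A673 controls for a fall to be seen.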

Other observations

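Several members at or near 0 in A673 controls were detected in the other lines. KCNJ8 was at 36.9 and 37.7 CPM in A4573 without and with STAG2, KCNK5 at 2.22 and 6.31 there and KCND3 at 1.86 and 4.12. KCNH7 was at 11.2 CPM in SK-N-MC with STAG2 and 3.62 without it. KCNA6 stayed at 0.0978 to 0.354 CPM in both lines. Over all 26 count libraries 5 members had 0 counts in each and 18 had at most 3 counts in each.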
